A study of Bos taurus with 12 samples.

Results

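The miR-17-92 cluster and its paralogs were followed as 10 mature miRNAs (bta-miR-17-5p, bta-miR-18a, bta-miR-19b, bta-miR-20a, bta-miR-20b, bta-miR-92a, bta-miR-25, bta-miR-93, bta-miR-106b and bta-miR-363, written below without the prefix bta for Bos taurus) in extracellular vesicles (EVs) from bovine plasma. They were chosen by name out of the 783 bovine miRNAs listed for 12 small RNA libraries. No cut-off on their values was used, but earlier results of these data were known. Of the 10 members, 9 had a read in at least 1 library, 4 (miR-25, miR-93, miR-92a and miR-17-5p) had a read in all 12 libraries, and miR-363 had none. A further 6 listed miRNAs share a seed or a locus name with the members. Of these, miR-106a, miR-17-3p and miR-18b had 0 reads in all libraries, while miR-19a had 13 reads, miR-32 had 32 and miR-92b had 4 in total.

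The libraries came from 6 Charolais- or Limousin-cross beef heifers (Bos taurus) aged 21 to 32 months. Each heifer was bled on Day 7 of an unstimulated (U) estrous cycle and on Day 7 of the following cycle, in which multiple ovulations were induced (S). All heifers, in both cycles, had been synchronized beforehand with an intravaginal progesterone device, gonadotrophin-releasing hormone and prostaglandin F2α. In the S cycle they also received follicle-stimulating hormone and prostaglandin F2α and were inseminated. The response label was set by the number of corpora lutea counted after superstimulation, with 3 heifers of high (H) and 3 of low (L) response taken from the extremes of a larger group. This gave 4 groups of 3 libraries each, namely UL, UH, SL and SH. U came before S in every heifer, so superstimulation, insemination and the order of sampling cannot be told apart. The questions were whether EV miRNAs differ between H and L heifers in each cycle, and between cycles in each response class. A lower level in bulk plasma EVs could mean fewer vesicles from a source or fewer copies per vesicle, and these cannot be told apart here.

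In mammals, the miR-17-92 transcript is processed into several mature miRNAs, and 2 related clusters, miR-106b-25 and miR-106a-363, arose from the same ancestor by duplication. The seed, bases 2 to 8 of the mature miRNA, is the main determinant of which mRNAs are bound, so members with the same seed share many predicted targets even where they come from different clusters. The family is known for roles in cell proliferation and survival, in blood cell development and in the ovary, where it is found in granulosa cells.

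The mature sequences are shown because the comparisons below are between members with the same seed or from the same cluster. They are given 5′ to 3′ as listed with the data, in DNA letters, with the seed in capitals.
miR-17-5p: cAAAGTGCttacagtgcaggtagt
miR-20a: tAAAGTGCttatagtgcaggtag
miR-20b: cAAAGTGCtcacagtgcaggta
miR-93: cAAAGTGCtgttcgtgcaggta
miR-106b: tAAAGTGCtgacagtgcagat
miR-18a: tAAGGTGCatctagtgcagata
miR-19b: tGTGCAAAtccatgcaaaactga
miR-92a: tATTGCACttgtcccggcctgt
miR-25: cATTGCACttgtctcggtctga
miR-363: aTTGCACGgtatccatctgcg

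The members had 5 seeds. The seed AAAGTGC was shared by 5 members (miR-17-5p, miR-20a, miR-20b, miR-93 and miR-106b), and ATTGCAC by miR-25 and miR-92a. The other 3 seeds had 1 member each, although miR-363 carries the letters ATTGCAC shifted by 1 base, at bases 1 to 7. In gene order along the assembly ARS-UCD2.0, the miR-17 locus held 6 miRNA genes (MIR17, MIR18A, MIR19A, MIR20A, MIR19B and MIR92A-1), the miR-106b locus 3 (MIR106B, MIR93 and MIR25), and the miR-363 locus 6 (MIR363, MIR92A-2, MIR19B-2, MIR20B, MIR18B and MIR106A). Mature miR-19b and miR-92a can therefore come from either of the 6-gene loci, and their reads cannot be assigned to 1 of them. Compared from the 5′ end, miR-17-5p and miR-20b had 21 of 22 bases the same, miR-17-5p and miR-20a 21 of 23, miR-17-5p and miR-93 18 of 22, and miR-25 and miR-92a 18 of 22. The split of reads between miR-17-5p, miR-20a and miR-20b is thus less certain than their sum, although the authors annotated perfect matches only.

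Values are given as reads and as normalized reads. Reads were calculated back from the deposited tags per 1000000 mapped reads, and normalized reads are reads scaled by trimmed-mean-of-M-values (TMM) factors to the mean depth of the libraries. The known miRNAs gave 21466 (SH2) to 77433 (SH3) reads per library, with a median of 41190. At this depth 3 reads, the most a count of 0 allows, were worth 6.03 normalized reads in SH2 and 1.81 in SH3, which covers counting error only. The whole table was fitted with limma on the scale log2(normalized reads + 1), on which the change of a miRNA with few reads is understated, and all tests were two-sided. A miRNA is said to be called where its log2 fold change was 1 or more in either direction and its unadjusted P from limma did not exceed 0.05. These are the cut-offs of the study's own comparisons. No miRNA of the whole table passed an adjusted P of 0.05 in any comparison, and the count was 0 in each. The number with an unadjusted P of at most 0.05 was 6 for UH vs. UL, 11 for SH vs. SL, 12 for UH vs. SH, 9 for UL vs. SL and 12 for the interaction of cycle and response.

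The members together held 0.66% (SH1) to 2.8% (SH3) of the known miRNA reads of a library. In 11 libraries the share did not exceed 1.88%. Most of these reads came from the miR-106b-25 cluster, which gave 64.7 to 89.7% of the reads of the members (median 73.9%). The plot of composition by library shows that miR-25, miR-93 and miR-92a accounted for nearly all of them.

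**Figure D1:**
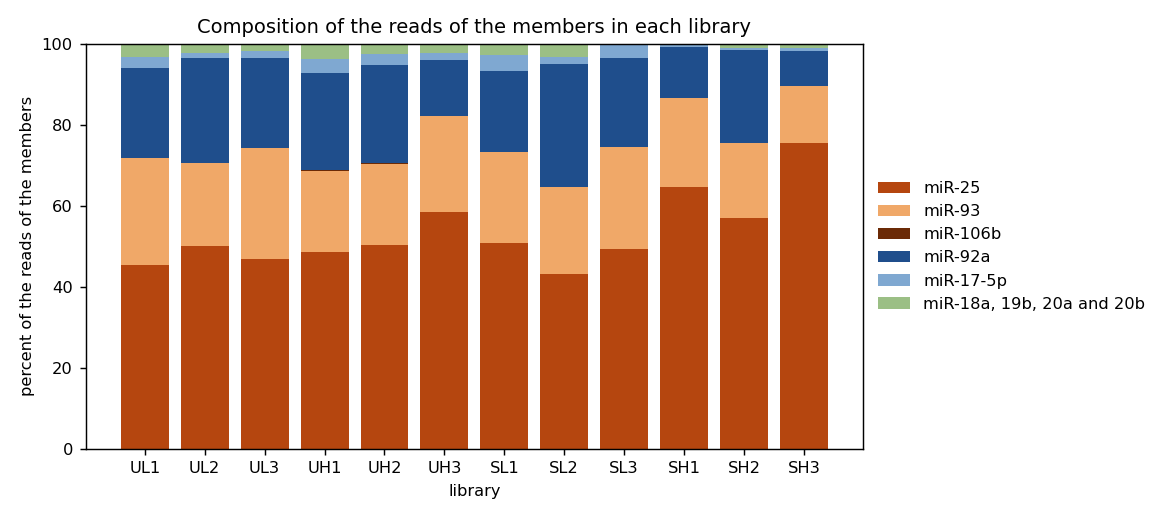
Each bar is 1 library and shows the percent of the reads of the 10 members that came from each named miRNA. The miR-106b-25 cluster (orange and brown shades) took 64.7 to 89.7% of each bar, and its share was largest in SH3.

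By mean normalized reads over the 12 libraries, miR-25 was the highest (354.3), followed by miR-93 (135.9), miR-92a (128.2), miR-17-5p (11.91), miR-19b (5.59), miR-20a (5.02), miR-18a (1.09), miR-20b (0.889), miR-106b (0.517) and miR-363 (0). Levels were compared between miRNAs as reads, since the mature forms are 21 to 24 bases long. Reads were not calibrated to copies of each sequence, so the order is one of reads. In this order, miR-25 was above miR-93 in 12 of 12 libraries and miR-92a above miR-17-5p in 12 of 12. The neighbours miR-93 and miR-92a were not separated, with miR-93 the higher in 7 libraries. miR-17-5p exceeded miR-19b in 10 of 12 libraries, whereas miR-19b exceeded miR-20a in only 7. The lowest members, miR-18a, miR-20b and miR-106b, had 17, 9 and 8 reads in total and could not be ordered.

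Reads were thus unequal within each cluster, and no difference in copies is claimed. Of the miR-106b-25 cluster, miR-93 and miR-106b share a seed and a transcript, yet miR-93 had 1708 reads and miR-106b 8, a ratio of 214. For the miR-17-92 cluster, miR-92a had 1554 reads, 10.8 times those of miR-17-5p and 21 times the 74 reads of miR-19b. Within the AAAGTGC seed, miR-93 gave 75.5 to 96.6% of the reads in each library. Within the ATTGCAC seed, miR-25 gave 58.7 to 89.8%, with a median of 68.6%. For both shared seeds, the member with the most reads belonged to the miR-106b-25 cluster in all 12 libraries.

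miR-17-5p, the first miRNA of the miR-17-92 transcript, was the member that differed most between groups. It had 15.7, 9.03 and 11.9 normalized reads in the UL libraries, 17.6, 14.2 and 13.5 in UH, and 19.6, 11.8 and 17 for SL, in the order of library numbers. In SH it had 2.69, 2.01 and 7.83 normalized reads, so each SH library was below each of the 9 others. The group means were 12.2 ± 3.33 in UL, 15.1 ± 2.19 in UH, 16.2 ± 3.98 in SL, against 4.18 ± 3.18 in SH (SD, n = 3). The SH values rest on 2, 1 and 13 reads, against 10 to 20 reads in the other libraries.

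For SH vs. SL, the mean of miR-17-5p was 3.87-fold higher in SL. The fitted log2 fold change was -1.87 (standard error 0.70, unadjusted P = 0.0225, adjusted P = 0.666 from limma), and miR-17-5p was called. It was the only one of the 6 members tested to be called, or to have groups that did not overlap. Over all 201 miRNAs tested, 5.47% were called and 8.96% had groups that did not overlap. With 6 members tested, 1 call is too few to tell their share from this background. At the mean level of SL, 12, 8.0 and 26.8 reads would have been counted in SH1, SH2 and SH3. The 95% Poisson limits of the reads counted were 0.24 to 7.22, 0.03 to 5.57 and 6.92 to 22.23, below that number in each of the 3 libraries. This takes the SL mean as fixed, although it rests on 39 reads, and leaves out the spread between heifers. Against the lowest library outside SH, which had 9.03 normalized reads, the upper limits of SH1 (9.70), SH2 (11.19) and SH3 (13.39) were higher, so no single SH library was below it beyond counting error. The call was lost in 4 of 6 fits to 5 libraries (without SL1, SL3, SH1 or SH2). There the log2 fold change was -1.82 to -1.56 and the unadjusted P from limma 0.05 to 0.0632. It was also lost with scaling to mapped reads (log2 fold change -1.67, unadjusted P = 0.0706 from limma). That scaling is the unit of the deposited values, whereas the authors' own comparisons used TMM.

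For UH vs. SH, miR-17-5p was 3.62-fold higher in UH by the means. Its fitted log2 fold change was 1.80 (standard error 0.81, unadjusted P = 0.0381, adjusted P = 0.736 from limma), and it was called. This was 1 call among 8 members tested, against 5.66% called over all 212 miRNAs. The groups did not overlap for miR-17-5p and miR-20a, 2 of 8 members, against 7.55% of all miRNAs tested. With 8 members tested, neither count can be told from its background. The call of miR-17-5p was lost without UH1, UH2, SH1 or SH2 (log2 fold change 1.49 to 1.84, unadjusted P = 0.0637 to 0.0952 from limma). Scaling to mapped reads also lost it (1.82, unadjusted P = 0.0803 from limma). SH vs. SL and UH vs. SH share the SH libraries, so these are not separate observations.

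In L heifers, miR-17-5p had a log2 fold change of -0.38 for UL vs. SL (standard error 0.46, adjusted P = 0.802 from limma), and in the U cycle 0.31 for UH vs. UL (standard error 0.52, adjusted P = 0.929 from limma). Neither comparison called it. The change between cycles was compared between H and L heifers in a fit over all 4 groups. Like the fits for UH vs. SH and UL vs. SL, it had no term for heifer. The labels do not tie U to S libraries, so the 2 samples of a heifer were treated as independent. The interaction of miR-17-5p was 2.18 on the log2 scale (standard error 0.84, unadjusted P = 0.0185, adjusted P = 0.847 from limma), the difference of U minus S being larger in H than in L heifers. It was the only call among 9 members tested, too few to tell their share from the 5.04% called of the 238 miRNAs tested. It was called in all 12 fits without 1 library, where it ranged from 1.87 to 2.65 and the unadjusted P from 0.00392 to 0.0468.

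**Figure D2:**
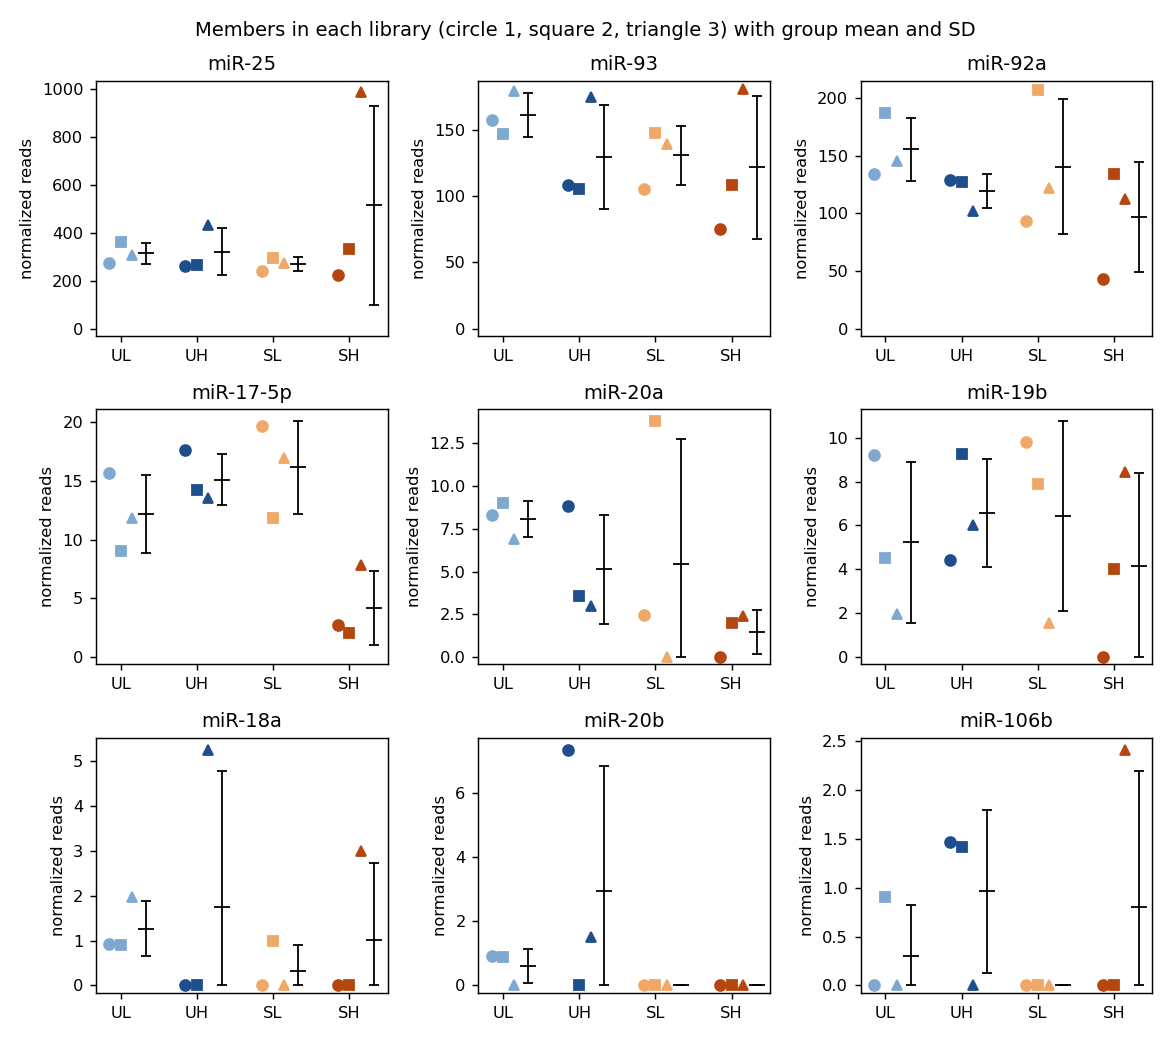
Each panel gives 1 member as normalized reads (vertical axis, linear) in the 3 libraries of each group, with the group mean and SD in black, the lower bar ending at 0 where the SD exceeds the mean. All 3 SH libraries of miR-17-5p (2.01 to 7.83) lie below the other 9 (9.03 to 19.6), and SH3 stands above the other libraries for miR-25.

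Of the miRNAs that share the seed of miR-17-5p, miR-20a comes from the same transcript. It had 8.3, 9.03 and 6.92 normalized reads in UL, 8.81, 3.56 and 3.01 in UH, 2.46, 13.8 and 0 for SL, and 0, 2.01 and 2.41 for SH. Each SH library was below each UH library, whereas SL ran from 0 to the highest value of the 12 libraries. UH3 and SH3 both had 4 reads, so the gap between UH and SH came from the scaling alone. For UH vs. SH the log2 fold change was 1.38 (standard error 0.86, adjusted P = 0.736 from limma), which did not pass. For UL vs. SL it was 1.28 (standard error 0.92, adjusted P = 0.702 from limma). This value depended on SL2, without which it was 2.28 and miR-20a was called (unadjusted P = 0.0176, adjusted P = 0.411 from limma, with 0.411 to 0.927 over the alternatives).

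miR-93, the member of this seed with the most reads, had 158, 147 and 180 normalized reads in UL, 109, 105 and 175 in UH, 105.6, 148 and 139 for SL, and 75.2, 109 and 181 in SH. The groups overlapped in all 4 comparisons, and SH held both the lowest and the highest of the 12 values. Its log2 fold changes were -0.35 for UH vs. UL, -0.18 for SH vs. SL, 0.14 for UH vs. SH and 0.31 for UL vs. SL, with standard errors of 0.23 to 0.46. None was called.

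miR-20b and miR-106b, the remaining AAAGTGC members, were near the limit of detection. miR-20b had 9 reads in 4 of the 6 U libraries, 5 of them in UH1, and 0 reads in all 6 S libraries. The S libraries held 242633 known miRNA reads in total, against 291503 in the U libraries. For UH vs. SH, miR-20b was tested only because UH reached the minimum of 2 libraries with a read. This favours a higher level in UH. It was not called in that fit. It was called with scaling to mapped reads, without a filter, in a fit of all 4 groups and without UH2. All of these fits rest on the same few UH reads, so none is evidence of a difference, and no fold is given. miR-106b had 1 read in UL, 3 in UH, and 0 for SL, while SH had 4 reads, all in SH3.

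Of the ATTGCAC seed, miR-92a is encoded last at the miR-17 locus and also at the miR-363 locus. It had 135, 187 and 145 normalized reads in UL, 129, 127 and 102 in UH, 93.3, 207 and 122 for SL, and 43.0, 135 and 113 for SH. SH1 was the lowest of the 12 libraries, while SH2 lay within the range of the other groups. Each UH library was below each UL library, the only such member among the 9 tested for UH vs. UL, a comparison in which 7.49% of the 227 tested did not overlap. The log2 fold change was -0.37 (standard error 0.28, adjusted P = 0.929 from limma), and none of the 9 members was called, against 2.64% of all miRNAs in this comparison. For SH vs. SL the log2 fold change of miR-92a was -0.61 (standard error 0.49), for UH vs. SH 0.45 (standard error 0.48) and for UL vs. SL 0.21 (standard error 0.30).

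miR-25, with the same seed but from the miR-106b-25 cluster, had 273, 359 and 308 normalized reads in UL, 261, 265 and 433 in UH, and 239, 295 and 274 in SL. In SH it had 222, 334 and 989, which are both the lowest and the highest of the 12 values. The SH mean of 515 ± 414 was thus set by SH3, at 2.28 times the next highest library. The log2 fold change for SH vs. SL was 0.64 (standard error 0.50, adjusted P = 0.697 from limma). It ranged from 0.02 to 1.10 when a library was left out, and was called without SH1 (1.10, unadjusted P = 0.0442, adjusted P = 0.766 from limma). For UH vs. SH it was -0.43 (standard error 0.50), turning to 0.19 without SH3.

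miR-486, an abundant red blood cell miRNA, also stood apart in SH3, with 8318 normalized reads, 3.07 times the next highest library. The 5 miRNAs of the red blood cell list (miR-451, miR-486, miR-144, miR-16a and miR-16b) summed to 9648 normalized reads in SH3 against 1791 to 4492 in the other 11 libraries, and 4 of the 5 had a read in every library. By group the sum was 2341 to 3523 in UL, 1791 to 4492 in UH, 1955 to 3249 for SL and 2899 to 9648 for SH. Without miR-486, the other 4 summed to 1330 in SH3 and 683 to 1779 in the other libraries, so the rest of the list did not stand apart there. miR-451 had 43.4 normalized reads in SH3 and 7.37 to 45.2 elsewhere, and miR-16a 585.5 against 178.8 to 556.4. The white blood cell list (miR-150, miR-142-5p, miR-142-3p, miR-155 and miR-223) summed to 1676 to 3646 in the 12 libraries, with SH3 at 2102. The log2 ratio of miR-451 to miR-23a, used to detect haemolysis, was -1.77 to -0.62 in SH and -3.47 to -0.99 elsewhere. No miRNA of either list was called in any of the 4 comparisons. Over all miRNAs tested, 2.34 to 5.66% were called, and lists of 5 are too short to tell 0 calls from this background. Without SH3, miR-17-5p remained called for SH vs. SL (log2 fold change -2.34) and for UH vs. SH (2.27). The part of red blood cells in the level of miR-25 was not tested.

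Over the 12 libraries, miR-486 was the miRNA most like miR-25 among 103 miRNAs with a mean of at least 10 normalized reads (Pearson's r = 0.89 on the log2 scale, 0.66 without SH3), followed by miR-15b (r = 0.84, 0.64 without SH3). For miR-17-5p the most alike were miR-339a (r = 0.74) and miR-151-5p (r = 0.68), and its correlation with miR-486 was -0.32. For miR-92a they were miR-375 (r = 0.83) and miR-23b-3p (r = 0.78), and for miR-93 miR-339b (r = 0.80) and miR-191 (r = 0.79). Between members of the same cluster, r was 0.75 for miR-92a and miR-20a, 0.62 for miR-25 and miR-93, 0.37 for miR-17-5p and miR-20a, and 0.36 for miR-17-5p and miR-92a. Between members of different clusters, r was 0.59 for miR-92a and miR-93, 0.38 for miR-17-5p and miR-93, and 0.17 for miR-25 and miR-92a (0.47 without SH3). Spearman's rho, by ranks, was 0.71, 0.76, 0.19 and -0.20 for the pairs of the same cluster, in the order given. It was 0.32, -0.09 and 0.34 for those of different clusters. The sign thus turned for miR-17-5p with miR-92a and with miR-93. For miR-19b, r was 0.49 with miR-17-5p, 0.55 with miR-92a and 0.59 with miR-20a (rho 0.38, -0.04 and 0.35). These are descriptions of 12 libraries that fall into groups, with depth and scaling in common, and no test was made of them.

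**Figure D3:**
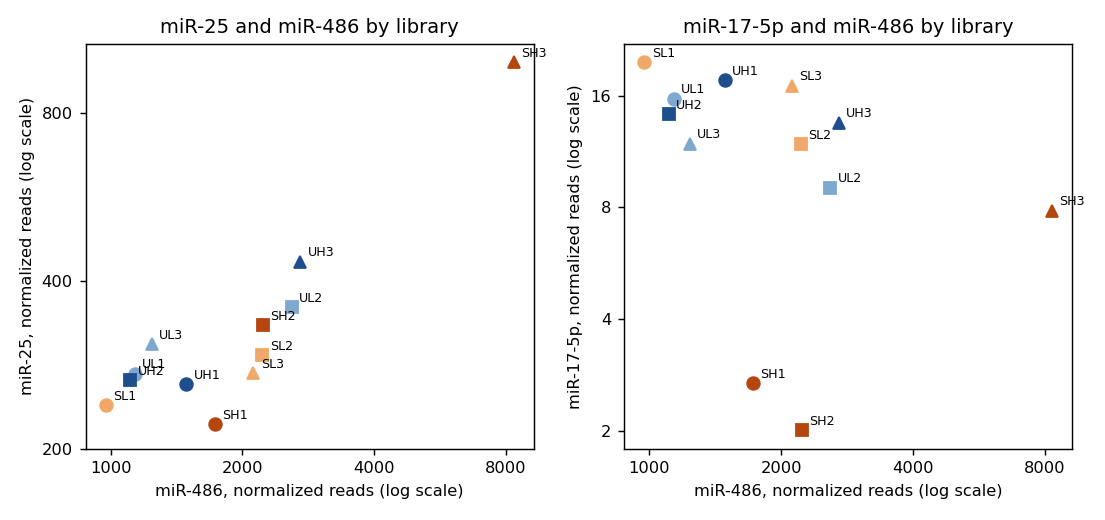
Each point is 1 library, with miR-486 on the horizontal axis and miR-25 (left) or miR-17-5p (right) on the vertical axis, in normalized reads on log scales. SH3 has the highest miR-486 (8318) and the highest miR-25 (989), whereas the 3 SH libraries have the lowest miR-17-5p.

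The remaining miR-17-92 members had few reads. miR-19b, the only member with its seed, had 9.22, 4.51 and 1.98 normalized reads in UL, 4.40, 9.25 and 6.02 in UH, 9.82, 7.88 and 1.55 for SL, and 0, 4.02 and 8.43 for SH. Its groups overlapped in all comparisons. Its log2 fold change was -0.79 for SH vs. SL (standard error 0.99) and 1.01 for UH vs. SH (standard error 0.95, adjusted P = 0.83 from limma). miR-19a of the same seed had 3 reads in UL, 5 in UH, 5 for SL and 0 for SH, and was not called. miR-18a had 4 reads in UL, 7 in UH (all in UH3), 1 for SL and 5 for SH (all in SH3). The sum of miR-17-5p, miR-18a and miR-20a, the members that come from the miR-17-92 locus alone, was 21.5 ± 3.04 normalized reads in UL, 22.0 ± 4.32 in UH, 21.9 ± 4.80 in SL, against 6.65 ± 5.76 in SH (SD, n = 3). It was 17 to 26.6 in the 9 libraries outside SH and 2.69, 4.02 and 13.3 in SH. miR-17-5p made up most of the sum, with means of 16.2 in SL and 4.18 in SH. The sum is therefore not an observation separate from miR-17-5p, and it is given without a test.

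A member that reached the minimum of 2 libraries with a read in only 1 of the groups compared was tested because of its reads in that group, which favours a higher level there. This held for miR-18a and miR-106b in UH vs. UL, for miR-20b and miR-106b in UH vs. SH, and for miR-18a and miR-20b in UL vs. SL, and these are left out of the following counts. Among the members that reached it in both groups, the median log2 fold change was -0.69 for SH vs. SL (6 members, 1 positive and 5 negative), 0.73 for UH vs. SH (6 members, 5 positive and 1 negative), 0.21 for UL vs. SL (6 members, 4 positive and 2 negative) and 0.00 on rounding for UH vs. UL (7 members, 3 positive and 4 negative). Over all miRNAs that did so, the medians were -0.03, -0.01, 0.04 and 0.02. For UL vs. SL, 0 of the 8 members tested were called and 0 had groups that did not overlap, against 2.34% and 7.94% of the 214 miRNAs tested. The members with a read in every library did not share a direction for SH vs. SL, with miR-25 at 0.64 and miR-17-5p at -1.87.

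**Figure D4:**
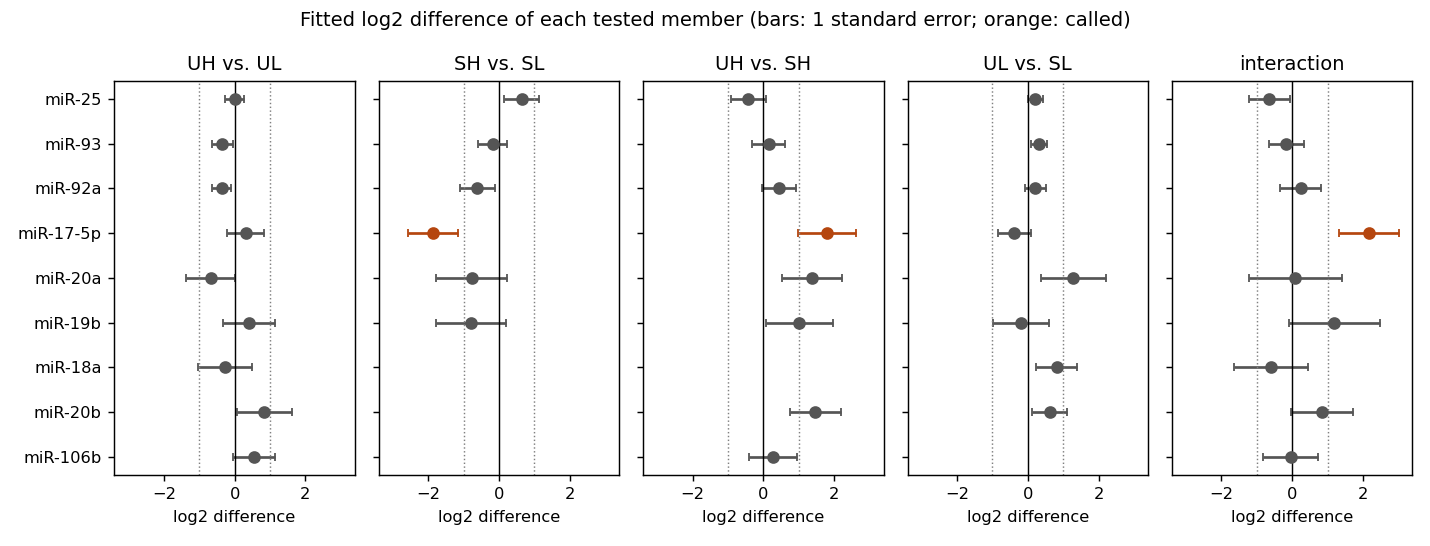
Each panel is 1 comparison, and the points are the fitted log2 differences (first minus second group named) of the members tested, with bars of 1 standard error and dotted lines at 1 and -1. Only miR-17-5p (orange) was called, with -1.87 for SH vs. SL, 1.80 for UH vs. SH and 2.18 for the interaction.

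Ratios of 2 members within a library do not use the scaling factors, and 5 ratios were compared in the 4 comparisons. They are log2 ratios of reads, each with 1 read added, which pulls the ratio towards 0 where a member has few reads, as miR-17-5p in SH1 and SH2. The exact permutation test of 3 libraries against 3 cannot give a p under 0.1, and the smallest adjusted p over the 20 tests was 0.333. The groups did not overlap in 6 of the 20. Each of these had the smallest possible exact permutation p of 0.1, the share of arrangements of 3 against 3 without overlap. The 20 comparisons share members and libraries, so the 6 are not separate observations. No share over ratios of other miRNAs was computed.

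For miR-93/miR-17-5p, with the same seed and from different clusters, the log2 ratio was 4.25, 4.78 and 4.43 in SH and 2.36 to 3.90 in the other 9 libraries. The mean was 4.49 ± 0.27 in SH and 2.94 ± 0.59 in SL, a difference of 1.55 (exact permutation p = 0.1, two-sided, adjusted p = 0.333), and 2.99 ± 0.57 in UH, a difference for UH vs. SH of -1.49 (exact permutation p = 0.1, adjusted p = 0.333). With 0.5 reads added in place of 1, these differences were 1.74 and -1.69. By the reads counted, miR-93 thus outweighed miR-17-5p more in all 3 SH libraries than in any other library. As a share of the reads of this seed, miR-17-5p gave 6.67 ± 1.70% in UL, 10.2 ± 2.80% in UH, 11 ± 4.30% in SL, against 3.07 ± 1.14% in SH. With limits from counting error, it was 3.4% (0.4 to 11.9%) in SH1, 1.8% (0.0 to 9.6%) in SH2 and 4.0% (2.2 to 6.8%) in SH3. These limits all include the 5.4% of UL2. By this share, no single SH library was thus apart from all other groups beyond counting error.

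miR-93/miR-25, from the same transcript and with different seeds, had log2 ratios of -1.54, -1.60 and -2.44 in SH and -1.33 to -0.77 in the other 9 libraries. The difference for SH vs. SL was -0.82 (exact permutation p = 0.1, adjusted p = 0.333) and for UH vs. SH 0.57 (exact permutation p = 0.1, adjusted p = 0.333). The proportion of these members was not fixed across libraries. By the reads counted, miR-25 was higher relative to miR-93 in each SH library than in any library of the other groups. miR-25 gave 84.3% of the miR-106b-25 reads in SH3, with limits from counting error of 82.6 to 85.9%. It gave 74.7% (68.4 to 80.3%) in SH1 and 75.5% (69.2 to 81.0%) in SH2, against 71.3% (67.2 to 75.2%) in UH2. Of the SH libraries, only SH3 was thus apart from all other groups beyond counting error. The 2 ratios in which all SH values lay outside those of the other libraries both have miR-93 as a term.

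For miR-25/miR-92a, of the same seed, the log2 ratio was 1.01, 0.94 and 1.08 in UL, 1.01, 1.06 and 2.07 in UH, 1.35, 0.51 and 1.15 for SL, and 2.33, 1.30 and 3.13 for SH. The SH mean of 2.25 ± 0.92 was above that of SL, 1.0 ± 0.44, but the groups overlapped (difference 1.25, exact permutation p = 0.2, adjusted p = 0.333). For miR-17-5p/miR-92a, both encoded at the miR-17 locus but with miR-92a also encoded at the miR-363 locus, SH was at -4.10 ± 0.87 and UH at -2.91 ± 0.17, a difference for UH vs. SH of 1.19 without overlap (exact permutation p = 0.1, adjusted p = 0.333), whereas SH and SL overlapped. For miR-20a/miR-17-5p, of the same seed and transcript, UH (-1.54 ± 0.57) was below UL (-0.52 ± 0.45) without overlap (difference -1.03, exact permutation p = 0.1, adjusted p = 0.333). In SH this ratio (-1.02 ± 0.89) lay within the range of the other groups.

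**Figure D5:**
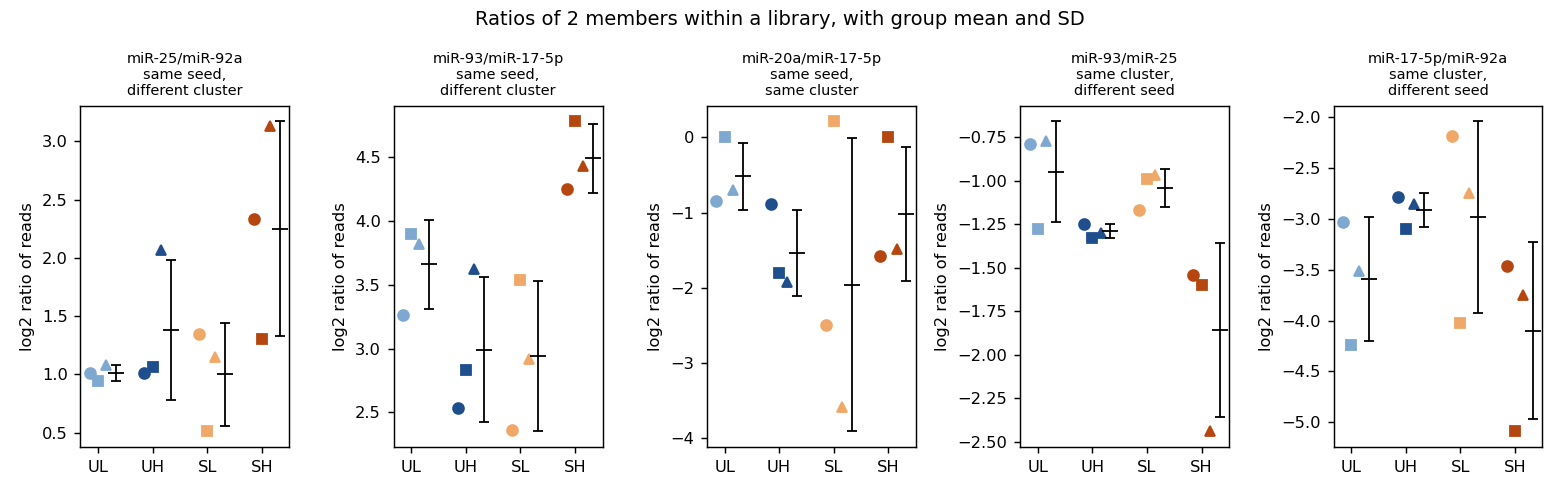
Each panel gives the log2 ratio of the reads of 2 members in each library by group, with the group mean and SD in black. In miR-93/miR-17-5p the 3 SH libraries (4.25 to 4.78) lie above all others, in miR-93/miR-25 (-2.44 to -1.54) they lie below all others, and in the remaining 3 ratios they overlap with other libraries.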

How the data were processed

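EV RNA was isolated with a membrane affinity kit, and small RNA libraries with unique molecular identifiers were sequenced by the authors. They collapsed reads by identifier with Cutadapt, used Bowtie2 2.2.2 to map them to UMD3.1 and annotated perfect matches against miRBase. The deposited values are a score made by the authors, tags per 1000000 mapped reads with the decimals removed. Each is the whole part of the reads times a step fixed for the library, from which reads were calculated back. The number of value columns left unused was 0.

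Own code following the published method gave the TMM factors of the 12 libraries (30% of ratios and 5% of levels trimmed). limma 3.58.1 (R 4.3.3) was fitted with a mean-variance trend to log2(normalized reads + 1), with the libraries of the 2 groups compared, or all 4 for the interaction. A miRNA was tested if 2 or more libraries of a compared group had a read, with Benjamini-Hochberg adjustment over all of them. The fit was tested on simulated data. Poisson limits are at 95%. All 3 replicate pairs of each group differed by more than sampling noise, so each library counted as 1 sample. Each library of a group was from another heifer. The members, the lists and the tests were chosen with earlier results of these data known. The named miRNAs were the 10 members, all other rows with a member's seed or locus name, and the 2 miRNAs most correlated with each member of mean at least 10 normalized reads. Gene order came from RefSeq on ARS-UCD2.0, another build than that of the files, and no coordinates were taken from it. Alternatives were other scalings, filters and pseudocounts, a replicate block, all groups in 1 fit, and leaving out each library.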

Additional observations from a re-analysis of the deposited data

Results flagged for a closer look

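One result met the criteria for a closer look. The change of miR-17-5p between cycles differed between H and L heifers by 2.18 on the log2 scale in the test of the interaction (standard error 0.84, unadjusted P = 0.0185, adjusted P = 0.847 from limma over 238 miRNAs, of which 5.04% were called). In H heifers the fitted log2 difference, U minus S, was 1.80, and in L heifers it was -0.38. All 3 SH libraries were below all 3 UH libraries, whereas UL and SL overlapped. The SH values rest on 2, 1 and 13 reads. Because the adjusted P did not pass and the members were chosen with earlier results known, the difference is given as a value to be followed up.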

How the results depend on the processing

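Of 335 values recomputed under another scaling, filter, pseudocount, block or sample set, 329 kept their direction and their side of the thresholds. Of the rest, 2 calls were lost, 3 were gained and 1 value turned its sign. That was miR-25 for UH vs. UL, from -0.003 to 0.165 with scaling to mapped reads. With libraries left out one at a time, 361 of 404 values kept both, 8 calls were lost, 3 were gained and 32 turned their sign. The interaction of miR-17-5p was called under all 8 other settings and in all 12 fits without 1 library. The causes of the changes were not tested. Where a group is left with 2 libraries, limma pools the spread over the groups in the fit.

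The number of called members changed as follows. For SH vs. SL it went from 1 to 0 with scaling to mapped reads. For UH vs. SH it was 2 without a filter and 2 in a fit of all 4 groups, miR-20b being added, and 0 with a minimum mean of 10 normalized reads, a filter that miR-17-5p does not reach. Without 1 library it was 0 to 1 for SH vs. SL, 0 to 1 for UH vs. SH and 0 to 1 for UL vs. SL, where miR-20a was called without SL2.

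Over all miRNAs, the minimum mean of 10 normalized reads gave 1 call for UH vs. UL, 5 for SH vs. SL, 6 for UH vs. SH, 0 for UL vs. SL and 4 for the interaction, with 6, 11, 12, 5 and 12 in the fits reported. The calls for UH vs. UL were 10 without a filter. For SH vs. SL they were 7 with scaling to mapped reads and 18 in a fit of all 4 groups. For UL vs. SL they were 3 with a pseudocount of 2 and 10 in the fit of all groups. Leaving out a library gave 5 to 10 calls for UH vs. UL (10 without UL3 or UH2), 8 to 34 for SH vs. SL (34 without SH2), 6 to 24 for UH vs. SH (6 without UH2 or SH1, 24 without SH2), 7 to 15 for UL vs. SL (15 without SL2) and 7 to 21 for the interaction (7 without UL1, 21 without SH2). The 6 ratio comparisons without overlap became 6 to 12 (12 without SL2).

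The log2 fold changes that turned their sign without a library had these ranges. For UH vs. UL they were -1.15 to 0.18 for miR-18a, -0.041 to 0.85 for miR-19b and -0.24 to 0.12 for miR-25. For SH vs. SL they were -1.48 to 0.14 for miR-19b, -1.72 to 0.23 for miR-20a and -0.52 to 0.12 for miR-93. For UH vs. SH they were -0.05 to 0.76 for miR-92a, -0.88 to 0.19 for miR-25, -0.15 to 0.48 for miR-93 and -0.025 to 0.86 for miR-106b. For UL vs. SL they were -0.83 to 0.26 for miR-19b and -0.045 to 0.53 for miR-92a, with -0.24 to 0.18 for the ratio miR-25/miR-92a. For the interaction they were -1.49 to 0.064 for miR-18a, -0.91 to 1.04 for miR-20a, -0.26 to 0.55 for miR-92a, -0.47 to 0.17 for miR-93 and -0.33 to 0.55 for miR-106b. None of these was called in the fits reported.

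The libraries are numbered 1 to 3 in each group, and the labels do not tie the numbers of the U libraries to those of the S libraries. The deviations of libraries with the same number from their group means, over 238 miRNAs, correlated at 0.05, 0.21 and 0.13 between UH and SH and at 0.10, 0.06 and -0.05 between UL and SL. The highest correlations with another number were 0.03, -0.04 and 0.12 between UH and SH. Between UL and SL they were 0.09, -0.01 and 0.15. In 5 of 6 cases a library thus correlated best with its own number, but mostly by small margins, which does not settle the pairing. With the number as a replicate block, 15 miRNAs were called for UH vs. SH, 3 for UL vs. SL and 13 for the interaction, and miR-17-5p was called for UH vs. SH and for the interaction, as in the fits without the block. Depth limited the members below miR-92a most: miR-17-5p, miR-19b and miR-20a had at most 20 reads in a library, and miR-18a, miR-20b and miR-106b at most 7.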
